A study of Mus musculus with 6 samples.

Results

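Described here are 56 genes of mitosis and the G2/M transition, chosen by name as a list of mitotic kinases, cyclins, kinetochore and checkpoint proteins, motors, condensin subunits and cytokinesis factors, out of 54532 genes in the count table. All 56 symbols were found, and all 56 passed the filter on low counts, with 45 to 4696 counts per gene and library. RNA came from cultured mouse endothelial cells treated for 72 h with lentivirus that overexpressed RBPMS (RBPMS group, 3 libraries) or carried the empty vector (control group, 3 libraries). RBPMS is an RNA-binding protein, and the design asks what its excess does to the transcripts of these cells. The vessel bed, the promoter of the vector, any selection of infected cells and whether replicates are separate cultures are not stated in the labels. The spread behind every p-value is that between these libraries and may be technical.

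Entry into mitosis is driven by Cdk1 bound to B-type cyclins, with Polo and Aurora kinases acting beside it. The spindle assembly checkpoint holds the anaphase-promoting complex (APC/C) inactive until kinetochores are attached to microtubules, and the complex then marks securin and cyclin B for breakdown. Transcripts of these genes peak in G2 and mitosis, and in confluent endothelium, which is mostly quiescent, they are low. Many of their promoters hold a CHR element (cell cycle genes homology region), bound by the MuvB core of the DREAM, B-MYB and FOXM1 complexes, and CCAAT boxes, bound by NF-Y.

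Promoter sequences are shown because the genes moved mostly together in the values given further on. Whether promoters had a part in that was not tested. RefSeq promoter windows (GRCm38.p6, 250 bases before to 50 after a start) were at hand for 46 of the 56 genes, 51 windows in all. The CHR motif TTTGAA, on either strand, was present in 74.5% of these windows, against 17.9% of 32851 windows of all genes, and CCAAT, on either strand, in 74.5% against 37.4%. Both motifs were present in 62.7% of the members' windows and 6.95% of all windows. The 2 motifs can share at most 1 base, and a match is only a match of letters. By gene, 34 of 46 had TTTGAA in a window, before or after the start. The genes with no window, which do not enter the split, are Foxm1, Ccna2, Dlgap5, Cdc25c, Smc4, Spc24, Aurkb, Kif20a, Tpx2 and Incenp. Among them Foxm1, Ccna2, Smc4, Spc24 and Aurkb were lower with RBPMS in the test without control replicate 3 described further on. Of the 34 genes with TTTGAA 14 were lower in that test, and of the 12 without it 1 was lower, a difference that was not tested. Their medians were -0.32 and -0.24 as log2 fold changes. Split by CCAAT, 13 of 34 genes with a match and 2 of 12 without one were lower, with medians of -0.28 and -0.26. Of all genes tested 3.43% were lower in that test.

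The 200 bases just before the start are shown for 1 gene of each role that has TTTGAA there, taken as the one with the smallest p, and for Gtse1, which was added after its values were seen because it moved the other way. Capitals mark TTTGAA and CCAAT or their reverse complements, and each line reads 5′ to 3′ on the gene's strand. The windows are Ccnb2 (chr9:70421555-70421754, minus strand), Cdc20 (chr4:118437344-118437543, minus strand), Top2a (chr11:99024190-99024389, minus strand), Kif11 (chr19:37376182-37376381, plus strand), Cep55 (chr19:38054841-38055040, plus strand), Bub3 (chr7:131560170-131560369, plus strand) and Gtse1 (chr15:85859507-85859706, plus strand).
Ccnb2: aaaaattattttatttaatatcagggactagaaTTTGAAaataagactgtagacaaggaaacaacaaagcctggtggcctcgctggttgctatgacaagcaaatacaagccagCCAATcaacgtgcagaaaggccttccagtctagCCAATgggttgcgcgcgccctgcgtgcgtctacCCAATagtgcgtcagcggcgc
Cdc20: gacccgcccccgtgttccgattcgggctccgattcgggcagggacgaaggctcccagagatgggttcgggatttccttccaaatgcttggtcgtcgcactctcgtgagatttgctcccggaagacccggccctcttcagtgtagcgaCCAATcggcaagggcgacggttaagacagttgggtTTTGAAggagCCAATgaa
Top2a: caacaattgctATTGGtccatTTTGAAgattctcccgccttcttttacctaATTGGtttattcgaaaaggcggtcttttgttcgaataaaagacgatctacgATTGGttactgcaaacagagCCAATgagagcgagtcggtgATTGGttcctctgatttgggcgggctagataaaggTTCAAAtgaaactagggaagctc
Kif11: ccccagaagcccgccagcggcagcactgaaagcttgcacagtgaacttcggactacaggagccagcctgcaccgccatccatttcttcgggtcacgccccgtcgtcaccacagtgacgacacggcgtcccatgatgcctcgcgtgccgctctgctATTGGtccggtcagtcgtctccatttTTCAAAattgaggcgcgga
Cep55: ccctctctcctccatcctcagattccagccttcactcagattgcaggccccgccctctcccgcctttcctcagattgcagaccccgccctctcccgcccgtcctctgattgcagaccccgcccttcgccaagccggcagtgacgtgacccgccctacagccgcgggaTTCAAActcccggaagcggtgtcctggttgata
Bub3: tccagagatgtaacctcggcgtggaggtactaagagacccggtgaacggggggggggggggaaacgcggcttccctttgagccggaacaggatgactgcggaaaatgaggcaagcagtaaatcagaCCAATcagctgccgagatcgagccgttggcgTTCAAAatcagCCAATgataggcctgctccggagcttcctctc
Gtse1: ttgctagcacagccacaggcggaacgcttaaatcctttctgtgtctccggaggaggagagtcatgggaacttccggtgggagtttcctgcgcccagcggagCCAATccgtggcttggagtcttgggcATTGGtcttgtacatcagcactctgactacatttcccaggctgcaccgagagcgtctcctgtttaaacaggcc
In Cdc20, Kif11 and Cep55 the TTTGAA match begins 18, 19 and 33 bases before the start, and in Top2a the nearer of 2 begins 23 bases before it. Ccnb2 has TTTGAA 167 bases before the start, and again from base 5 counted from the start, outside the bases shown. Its CCAAT matches begin 87, 54 and 21 bases before the start. Neither Gtse1 window holds TTTGAA, and this one has CCAAT matches 99 and 73 bases before the start, and another that begins 2 bases before it and runs past it. All other members without TTTGAA in a window had log2 fold changes below 0, such as Ccnb1 (-0.37) and Nusap1 (-0.016).

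Total counts were 18199702 to 21492957 in RBPMS libraries and 15779567 to 23076124 in controls. The Rbpms transcript was at 131, 148 and 133 CPM in RBPMS libraries, against 57.1, 56.8 and 55.2 CPM in controls. Levels are in CPM, counts relative to the TMM-scaled library total, unless stated otherwise. Control replicate 3 stood apart: Pearson's r of log2 CPM across genes was 0.954 to 0.960 in its pairs with other libraries and 0.991 to 0.995 in pairs of those 5. Results are therefore given with and without it. All 8 endothelial markers had counts in every library, with a summed level of 15280 to 16190 CPM of total counts with RBPMS and 11080 to 18030 in controls. Control replicates 1 and 2 were at 17690 and 18030, above every RBPMS library. Against these 2 controls Vwf (5443 to 6051, against 7808 and 7812) and Kdr were lower in every RBPMS library. Pecam1, Cdh5 and Erg were higher, and Tek, Tie1 and Eng overlapped. Summed leukocyte markers were 53.9 to 58.6 with RBPMS and 41.2 to 46.9 in controls, nearly all of it Cd68, while Adgre1 and Cd3e had 0 counts and Ptprc at most 0.165. Summed mesothelial markers were 17.1 to 21.2 with RBPMS and 21.4 to 26.3 in controls, mostly Msln. Summed smooth muscle and pericyte (at most 1.602), fibroblast (at most 7.86), cardiomyocyte (at most 3.73) and epithelial markers (at most 0.0433) overlapped between the groups, and the part of such cells in the results was not tested.

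Transcripts of the mitotic machinery were lower with RBPMS as a group, with Gtse1 as the one member that rose. Together the 56 genes took 0.177%, 0.182% and 0.199% of all counts in RBPMS libraries, against 0.237%, 0.210% and 0.210% in controls. All 3 RBPMS libraries lay below all 3 controls in this sum. RBPMS replicate 3 was the nearest to the controls and the highest RBPMS library for 46 of 56 genes. Control replicate 1 was above control replicate 2 for 51 of 56. In such bulk samples fewer dividing cells and less of these transcripts per dividing cell cannot be told apart.

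A gene was called where its adjusted p in edgeR's quasi-likelihood test, over all genes tested, was under 0.05. Over all 6 libraries 0 of 56 genes were called, as were 0 of 13898 genes tested (0% lower), although 54 of the 56 log2 fold changes were below 0 and 22 had an unadjusted p under 0.05. Of all 13898 genes 51% were below 0 and 1050 had such a p. The smallest adjusted p in this edgeR fit was 0.0606, that of Rbpms itself (log2 fold change 1.28), so the overexpressed gene was not called either. Over all 6 libraries DESeq2 called 1 of the 56 genes, Spc24, as lower, and of all 13898 genes 15 as lower and 41 as higher. There limma-voom called 0 of the 56 and 0 of all genes. Without control replicate 3, 20 of the 56 fell and 1 rose, against 3.43% of 14123 genes lower and 3.81% higher. There 55 of 56 log2 fold changes were below 0, compared with 50.7% of all genes, and their median was -0.29, compared with -0.0025 over all genes. Over all 6 libraries the median was -0.25, compared with -0.0083 over all genes.

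The count of calls rested on control replicate 1, among these genes and over all genes tested. Without it as well, both counts were the lowest of the fits that left out 1 more library. Without RBPMS replicate 1 as well 10 of the 56 were lower and 1 higher, against 267 lower and 349 higher of 13819 genes tested. The median of the 56 was -0.20 with control replicate 1 also left out and -0.37 with control replicate 2 also left out. These 5-library and 4-library fits leave 2 or 1 controls, and a lone control is assumed to vary like the RBPMS libraries. In the 5 libraries the RBPMS values lay below both controls for 39 of 56 genes (19% of all genes tested) and above both for 1 (18.3%). In all 6 they lay below every control for 25 genes (12.5% of all genes tested) and above for 1 (12.2%). From here on, log2 fold changes (RBPMS over control, ± SE) and adjusted p are from the edgeR fit without control replicate 3 unless stated otherwise, and libraries are given in replicate order.

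**Figure D1:**
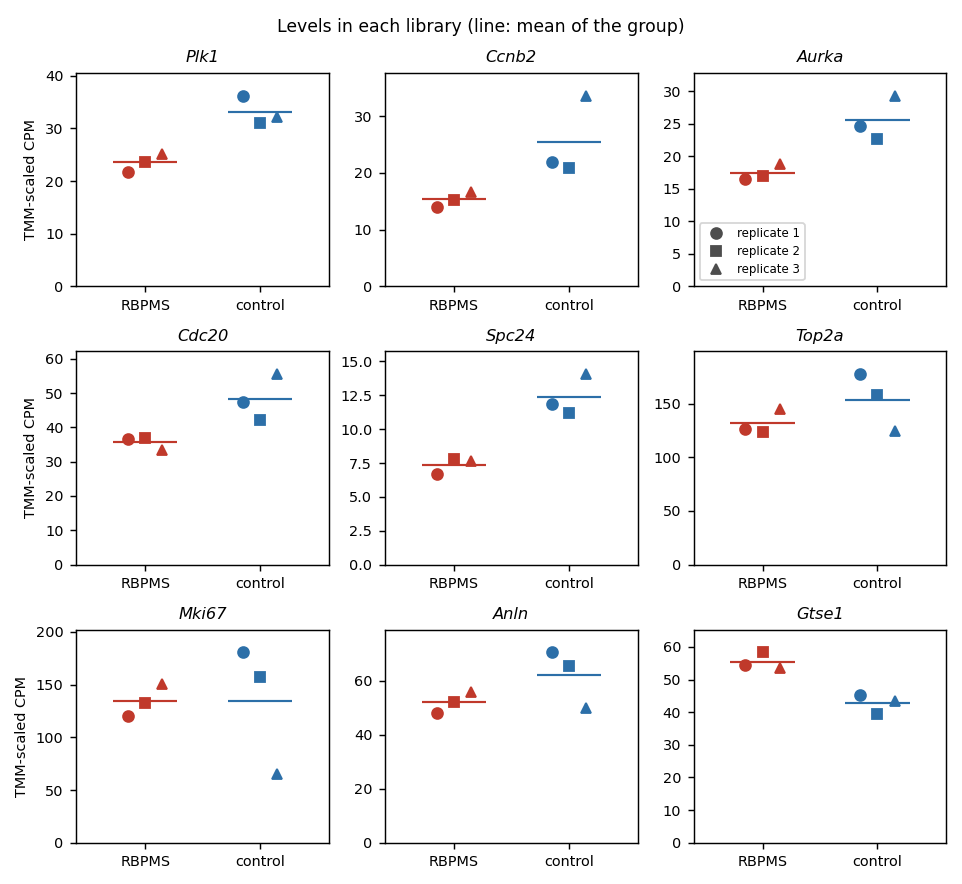
TMM-scaled CPM (y axis, from 0) of 9 of the genes in each RBPMS library (left) and control library (right), with a line at each group mean and a symbol for each replicate number. Plk1, Ccnb2, Aurka, Cdc20 and Spc24 separate the groups in all 6 libraries, Top2a, Mki67 and Anln do so without control replicate 3, and Gtse1 is above every control in all 3 RBPMS libraries.

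Among cyclins, mitotic kinases and the phosphatases that activate Cdk1, 5 of 8 fell and 0 rose, with a median log2 fold change of -0.36. Plk1, the Polo kinase of mitotic entry and spindle assembly (chr7:122159439-122169873, plus strand, GRCm38), had 21.7, 23.7 and 25.2 CPM in RBPMS libraries, against 36.1, 31.1 and 32.1 CPM in controls. The groups did not overlap, and control replicate 3 lay between the other controls (log2 fold change -0.51 ± 0.087, adjusted p = 0.000859). Plk1 held its call in every fit that left out 1 more library, with log2 fold changes of -0.62 to -0.41. Ccnb2, a B-type cyclin, had 14.03, 15.3 and 16.6 CPM with RBPMS, against 21.9, 20.8 and 33.5 CPM in controls (log2 fold change -0.48 ± 0.098, adjusted p = 0.00373). Control replicate 3 was the highest library there, so the log2 fold change over all 6 libraries was -0.73. Ccnb1, the main mitotic cyclin, had 21.2, 22.8 and 27.95 CPM with RBPMS, against 32.5, 29.2 and 35.2 CPM in controls (log2 fold change -0.37 ± 0.10, adjusted p = 0.0291). With RBPMS replicate 1 or RBPMS replicate 2 also left out, Ccnb1 was not called.

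Aurka, the Aurora kinase of centrosomes and spindle poles, had 16.5, 17.02 and 18.7 CPM with RBPMS, against 24.6, 22.7 and 29.3 CPM in controls (log2 fold change -0.44 ± 0.092, adjusted p = 0.00465). Ccna2, the cyclin of S phase and G2, had 31.2, 29.9 and 36.01 CPM with RBPMS, against 43.4, 39.5 and 37.6 CPM in controls (log2 fold change -0.36 ± 0.085, adjusted p = 0.0122). All 3 RBPMS libraries were below all controls for both genes. Ccna2 shares its locus with Exosc9 on the other strand, which had 48.9% of its summed count, and the labels do not say whether counting used strand, so its value is uncertain. Cdk1, the kinase itself, was not called: it had 48.6, 47.3 and 52.6 CPM with RBPMS, against 57.8, 51.5 and 90.8 CPM in controls, and the groups overlapped (log2 fold change -0.14 ± 0.072, adjusted p = 0.268). Its cyclin partners passed the test and Cdk1 did not, and a difference between them was not tested. The Cdk1-activating phosphatases Cdc25b and Cdc25c had log2 fold changes of -0.20 and -0.31 and were not called, and Cdc25b is uncertain because Spef1 on the other strand had 14.7% of its summed count. Cdc25c had the lowest counts of the 56, with 48, 56 and 63 counts with RBPMS, against 66, 45 and 113 in controls. With control replicate 1 also left out it stood at 0.0032.

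Foxm1, the forkhead transcription factor of G2/M genes, had 39.4, 42.5 and 42.6 CPM with RBPMS, against 52.99, 47.8 and 24.98 CPM in controls (log2 fold change -0.28 ± 0.073, adjusted p = 0.0214). It fell against control replicates 1 and 2, but control replicate 3 was the lowest of all libraries. Over all 6 its log2 fold change was -0.012.

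Of the chromosomal passenger complex, which corrects kinetochore attachments and guides cytokinesis, 1 of 4 genes fell. Its kinase Aurkb had 17.3, 16.4 and 17.3 CPM with RBPMS, against 23.6, 19.8 and 25.99 CPM in controls (log2 fold change -0.35 ± 0.097, adjusted p = 0.0287). The groups did not overlap, and leaving out control replicate 1 as well brought the value to -0.23. Aurkb was not called with RBPMS replicate 1 or RBPMS replicate 2 also left out. Birc5, which encodes survivin, had 17.4, 20.7 and 19.7 CPM with RBPMS, against 23.3, 23.1 and 42.1 CPM in controls and was not called (log2 fold change -0.27 ± 0.093, adjusted p = 0.0877). Incenp, the scaffold, had 50.8, 55.8 and 54.98 CPM with RBPMS, against 60.3, 60.2 and 47.9 CPM in controls (log2 fold change -0.16 ± 0.065, adjusted p = 0.15). It had the highest level per length of the 4, at 17.1 CPM per kb of annotated gene length. That length is the one listed with the counts and not the genomic span. Levels per kb are means over all 6 libraries, control replicate 3 included. Cdca8, the borealin gene, had a log2 fold change of -0.27 and overlaps 9930104L06Rik on the other strand, which had 73.3% of its summed count, so it is uncertain. All 4 were below control replicates 1 and 2 in every RBPMS library.

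Of the spindle assembly checkpoint 0 of 5 genes were called, with log2 fold changes of -0.43 to -0.091. Ttk, the kinase at the head of the checkpoint, had 8.31, 8.65 and 9.65 CPM with RBPMS, against 13.6, 10.2 and 9.96 CPM in controls (log2 fold change -0.43 ± 0.14, adjusted p = 0.0627). The groups did not overlap, but control replicate 1 stood well above the other controls. Mad2l1, which inhibits Cdc20, had 17.99, 21.5 and 21.98 CPM with RBPMS, against 26.6, 22.5 and 29.6 CPM in controls (log2 fold change -0.26 ± 0.10, adjusted p = 0.128). Bub3, a partner of the Bub1 kinases and the highest of the 5 in level per length, had 125, 125 and 125 CPM with RBPMS, against 135, 132 and 207 CPM in controls (log2 fold change -0.091 ± 0.046, adjusted p = 0.272). Its RBPMS values were all below those of controls, and control replicate 3 was far above the rest. Bub1b, which encodes BubR1, had 24.2, 24.6 and 27.4 CPM with RBPMS, against 30.7, 25.7 and 21.4 CPM in controls, and overlapped (log2 fold change -0.16 ± 0.090, adjusted p = 0.352). Bub1, a kinase of the checkpoint, had a log2 fold change of -0.22.

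Of genes of APC/C activity and chromatid separation 2 of 4 fell. Cdc20, the activator of the complex in mitosis, had 36.8, 36.9 and 33.4 CPM with RBPMS, against 47.5, 42.2 and 55.5 CPM in controls (log2 fold change -0.33 ± 0.078, adjusted p = 0.0124). It had the highest level per length of the 56, at 22.5 CPM per kb, but its locus overlaps Elovl1 on the other strand, which had 212% of its summed count, so it is uncertain. Ube2c, the ubiquitin-conjugating enzyme of the complex, had 40.6, 40.8 and 43.9 CPM with RBPMS, against 50.9, 51.2 and 89.8 CPM in controls (log2 fold change -0.29 ± 0.069, adjusted p = 0.0132). Control replicate 3 held the highest Ube2c level, and the log2 fold change over all 6 was -0.62. The securin gene Pttg1 had 9.34, 10.9 and 11.8 CPM with RBPMS, against 14.8, 12.2 and 26.3 CPM in controls and was not called (log2 fold change -0.34 ± 0.13, adjusted p = 0.108). Espl1, the separase that securin inhibits, had a log2 fold change of -0.16. All 4 genes were below control replicates 1 and 2 in every RBPMS library.

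Of centromere and kinetochore genes 2 of 7 fell. Spc24, a subunit of the NDC80 complex that binds microtubules, had the lowest log2 fold change of the 56. It had 6.70, 7.81 and 7.62 CPM with RBPMS, against 11.9, 11.2 and 14.1 CPM in controls (log2 fold change -0.64 ± 0.13, adjusted p = 0.00296), from 137 to 168 counts with RBPMS and 181 to 319 in controls. Every RBPMS library lay below every control. Its partners in the complex had log2 fold changes of -0.38 (Ndc80), -0.25 (Nuf2) and -0.13 (Spc25) and were not called. Spc25 had 11.1, 11.3 and 11.4 CPM with RBPMS, against 13.6, 11.2 and 19.2 CPM in controls, so that control replicate 2 lay among the RBPMS libraries. The differences between the 4 subunits were not tested. Cenpa, the centromeric histone H3 variant, had 23.9, 24.5 and 25.7 CPM with RBPMS, against 30.99, 31.3 and 43.5 CPM in controls (log2 fold change -0.34 ± 0.078, adjusted p = 0.0102). Cenpe, a kinetochore motor, and Cenpf, a large coiled-coil protein of kinetochores, had log2 fold changes of -0.29 and -0.33 and overlapped. With control replicate 1 left out as well these were -0.13 for each.

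Of 8 kinesin motors 1 fell. Kif11, the motor that pushes spindle poles apart, had 32.8, 37.5 and 37.7 CPM with RBPMS, against 49.5, 41.04 and 33.8 CPM in controls (log2 fold change -0.33 ± 0.087, adjusted p = 0.0229). It separated from control replicates 1 and 2 but not from replicate 3, and leaving out control replicate 1 as well brought the value to -0.19. Kif2c, a microtubule depolymerase at centromeres, had 11.1, 11.02 and 10.8 CPM with RBPMS, against 14.2, 13.8 and 16.3 CPM in controls. It was below every control but just missed the threshold (log2 fold change -0.35 ± 0.11, adjusted p = 0.0506). Kif20a, a motor of the central spindle, had 17.7, 16.04 and 18.2 CPM with RBPMS, against 21.7, 20.5 and 12.6 CPM in controls (log2 fold change -0.29 ± 0.094, adjusted p = 0.0717). It overlaps Cdc23 on the other strand, with 171% of its summed count, and is uncertain. The other 5 had log2 fold changes of -0.35 (Kif22, a chromosome-arm motor), -0.26 (Kif20b, a motor of cytokinesis), -0.23 (Kif4, a chromokinesin, uncertain because Pdzd11 on the other strand had 162% of its summed count), -0.20 (Kif23, of the centralspindlin complex) and -0.16 (Kif18b, a motor of astral microtubules), and none was called.

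Spindle microtubule proteins were mixed, with 1 of 7 lower and 1 higher. Gtse1, which binds microtubules in mitosis and is known in mouse as a p53-inducible gene that restrains p53, was the one member that rose (chr15:85859745-85876573, plus strand). It had 54.5, 58.3 and 53.5 CPM in RBPMS libraries, against 45.3, 39.6 and 43.4 CPM in controls (log2 fold change 0.39 ± 0.074, adjusted p = 0.0021), which is a fold of 1.31. Every RBPMS library was above every control, and the 3 controls lay close together. The log2 fold change over all 6 libraries was 0.38, with an unadjusted p of 0.00916 and an adjusted p of 0.587. Without control replicate 2 as well it was 0.29 (adjusted p = 0.0631). At 17.9 CPM per kb, a mean over all 6 libraries, it was the fifth of the 56 in level per length.

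Aspm, a protein of spindle poles, had 22.6, 24.4 and 26.3 CPM with RBPMS, against 34.6, 28.1 and 13.7 CPM in controls (log2 fold change -0.36 ± 0.093, adjusted p = 0.0205). It fell against control replicates 1 and 2, with control replicate 3 lowest of all libraries, and the value was -0.056 over all 6 and -0.21 with control replicates 1 and 3 left out. Tpx2, which activates Aurora A on the spindle, had 45.5, 48.1 and 50.8 CPM with RBPMS, against 61.9, 50.8 and 53.5 CPM in controls (log2 fold change -0.23 ± 0.079, adjusted p = 0.0899). The groups overlapped only at RBPMS replicate 3 and control replicate 2, which are equal to the digits given. Dlgap5, which stabilises kinetochore fibres (-0.35), Hmmr, a spindle-associated protein (-0.24), and Knstrn, of kinetochores and spindle (-0.22), were not called. Nusap1, a microtubule bundling protein, had the log2 fold change nearest to 0, at -0.016, and is uncertain because Oip5 on the other strand had 32.5% of its summed count.

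Of condensin and chromosome structure genes 4 of 7 fell. Top2a, the topoisomerase that untangles sister chromatids, had 126, 124 and 145 CPM with RBPMS, against 177, 158 and 125 CPM in controls (log2 fold change -0.35 ± 0.063, adjusted p = 0.00139). Mki67, the proliferation marker Ki-67 that coats mitotic chromosomes, had 119.8, 132 and 150.5 CPM with RBPMS, against 180.4, 157 and 65.3 CPM in controls (log2 fold change -0.33 ± 0.071, adjusted p = 0.00568). Both separated from control replicates 1 and 2 and not from replicate 3, whose Mki67 level was the lowest of all libraries. Over all 6 libraries the log2 fold change of Mki67 was 2.7e-04, so its direction rested on control replicate 3.

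The condensin ATPase subunit Smc4 had 93.04, 81.2 and 98.9 CPM with RBPMS, against 115, 110.5 and 108 CPM in controls (log2 fold change -0.31 ± 0.064, adjusted p = 0.00449), and was below every control. Ncapd2, a subunit of condensin I, had 62.4, 59.2 and 60.3 CPM with RBPMS, against 81.5, 72.6 and 57.6 CPM in controls (log2 fold change -0.34 ± 0.062, adjusted p = 0.00141). It was below control replicates 1 and 2, while control replicate 3 was lower still. Smc2 (-0.25), Ncapg (-0.19) and Ncaph (-0.16), the other subunits of condensin I, were not called, and the differences between subunits were not tested. Ncapg stood at 0.081 with control replicate 1 also left out, and its locus overlaps Lcorl on the other strand with 253% of its summed count.

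Of cytokinesis genes 3 of 5 fell, and all 5 were below control replicates 1 and 2 in every RBPMS library. Anln, the actin-binding anillin of the cleavage furrow, had 47.96, 52.2 and 55.9 CPM with RBPMS, against 70.4, 65.4 and 49.9 CPM in controls (log2 fold change -0.38 ± 0.070, adjusted p = 0.00145). Cep55, which recruits the abscission machinery, had 19.3, 21.1 and 23.5 CPM with RBPMS, against 30.1, 25.4 and 31.2 CPM in controls (log2 fold change -0.38 ± 0.096, adjusted p = 0.0172). Racgap1, the GTPase-activating subunit of centralspindlin, had 42.0, 40.04 and 45.5 CPM with RBPMS, against 53.6, 49.5 and 53.5 CPM in controls (log2 fold change -0.28 ± 0.074, adjusted p = 0.0238). Racgap1 was not called with RBPMS replicate 1 or RBPMS replicate 2 also left out. Cep55 and Racgap1 were below every control, and Anln overlapped through control replicate 3. Ect2, the RhoA exchange factor, had -0.32 and Prc1, the bundler of the central spindle, -0.25 as log2 fold changes, and neither was called. Prc1 is uncertain because Rccd1 on the other strand had 474 counts in all against 4291 of Prc1.

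**Figure D2:**
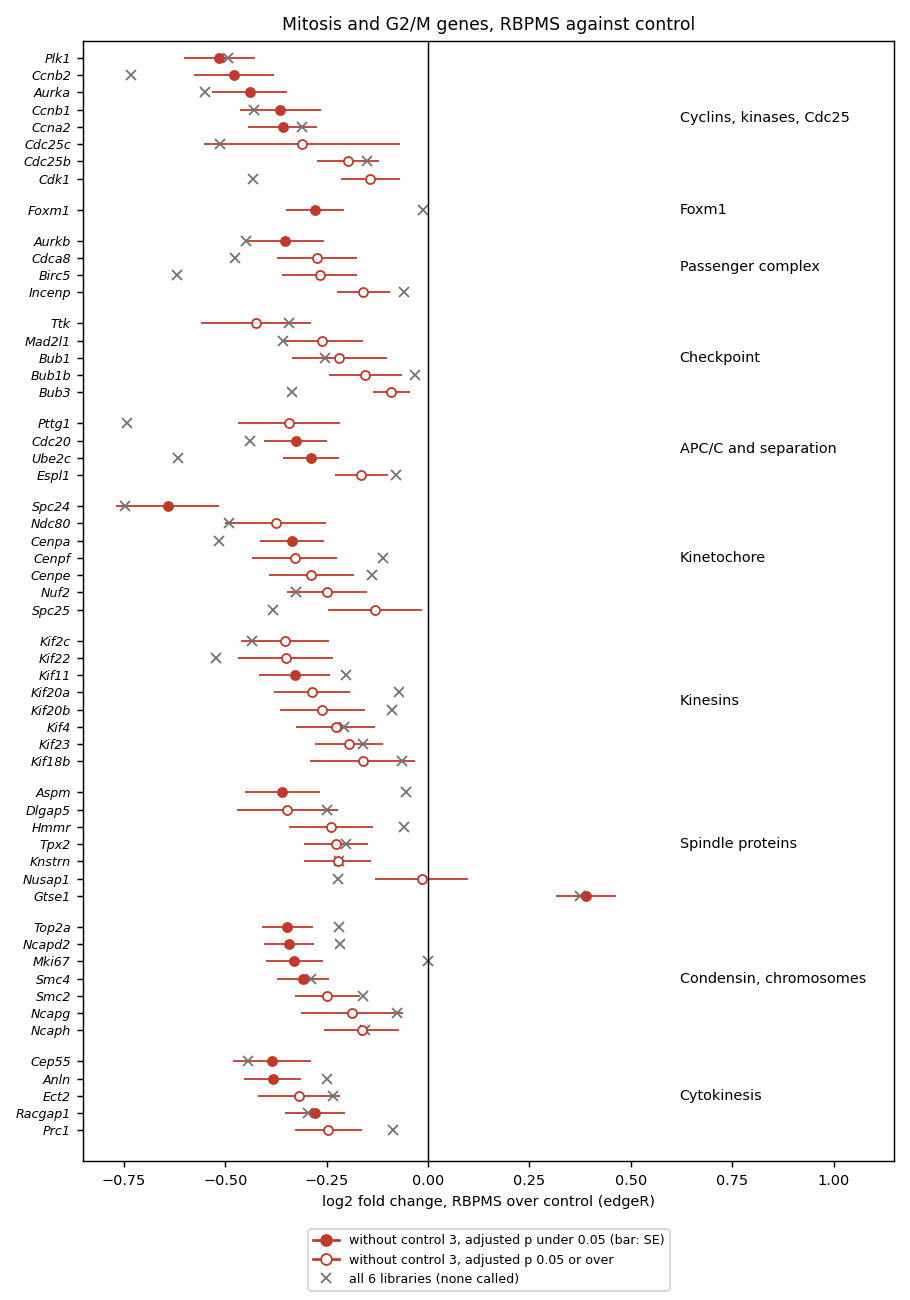
log2 fold change of RBPMS over control (x axis) for each of the 56 genes (rows, by role): red circles with SE bars are the edgeR fit without control replicate 3, filled where the adjusted p is under 0.05, and grey crosses the fit over all 6 libraries, where no member was called. All red circles but Gtse1 (0.39) lie below 0, from -0.64 (Spc24) to -0.016 (Nusap1).

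The median log2 fold change was below 0 in every role, and differences between roles were not tested. Medians were -0.36 for cyclins and kinases, -0.33 for kinetochores, -0.32 for cytokinesis, -0.31 each for condensin with chromosome structure and for APC/C with separation, -0.27 each for kinesins and the passenger complex, -0.23 for spindle proteins and -0.22 for the checkpoint. Per library, the median of the cyclins and kinases relative to control replicates 1 and 2 was -0.51, -0.45 and -0.19 in RBPMS libraries on the log2 scale. In the 3 RBPMS libraries the median of every role was below 0. Control replicate 3 divided the roles, at 0.25 for cyclins and kinases and 0.56 for APC/C and separation, but at -0.34 for condensin and chromosome structure and -1.01 for Foxm1.

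**Figure D3:**
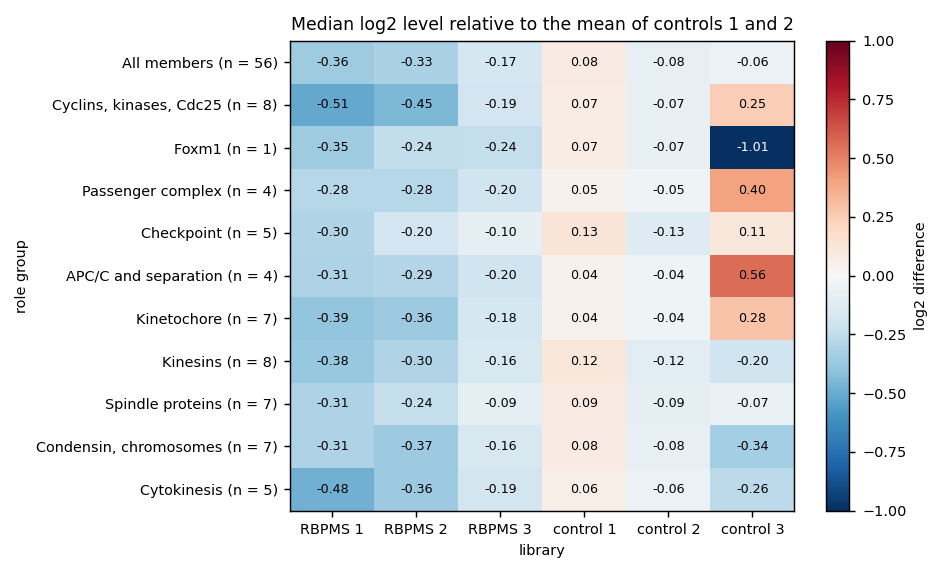
Median log2 level of each role group (rows, with the number of genes) in each library (columns) relative to the mean of control replicates 1 and 2. All role groups are below 0 in the 3 RBPMS libraries, while control replicate 3 runs from -1.01 to 0.56.

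The level of these genes in control replicate 3 tended to be lower where the annotated length was longer, with exceptions in both directions. This length is the one listed with the counts. It is shorter than the genomic span, at 2.199 kb for Plk1, whose coordinates are given above, and how it was measured is not stated. It exceeded both other controls for 22 genes and was below both for 26. The log2 difference from the mean of the other controls had a median of 0.28 over the 19 members with the shortest annotated length (1.53 to 4.08 kb), -0.061 over the middle 18 and -0.34 over the longest 19 (5.86 to 15.4 kb). It ran from 0.96 for Pttg1 to -1.36 for Mki67. Spearman's rho between length and this difference was -0.56 across the 56 genes, which share the same 3 libraries, and -0.50 across 13898 genes. Without control replicate 3 the median log2 fold change was -0.31, -0.26 and -0.29 in the short, middle and long members, and rho between length and log2 fold change was 0.10. With a trend on gene length taken out of each library, 0 members were called over all 6 libraries and 21 were lower and 1 higher without control replicate 3.

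**Figure D4:**
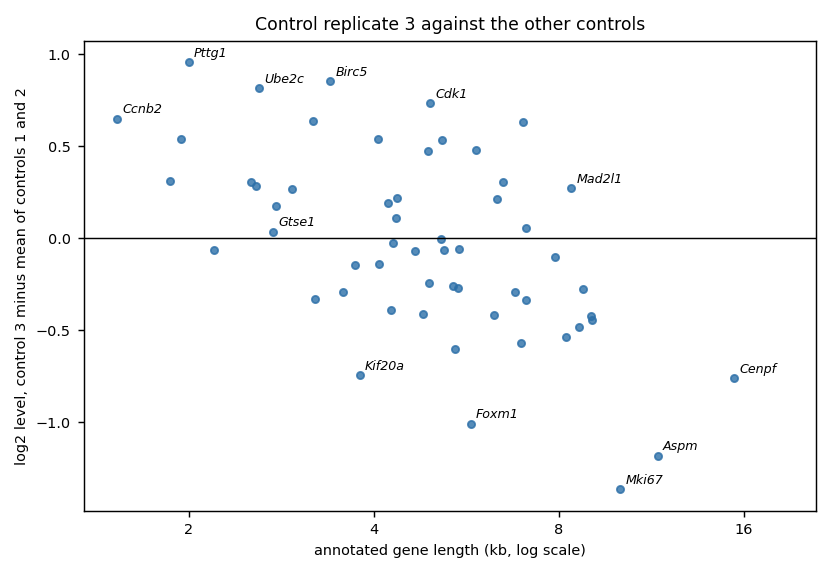
Each point is 1 of the 56 genes: annotated gene length in kb (x axis, log scale) against its log2 level in control replicate 3 minus the mean of control replicates 1 and 2 (y axis). The points scatter widely around a downward slope, from Pttg1 (0.96) among the short genes to Aspm (-1.18) and Mki67 (-1.36) among the long ones, with exceptions such as Kif20a (-0.74) and Mad2l1 (0.27).

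Among 124 other genes of the same processes, listed by role and not by their values, 9 fell and 0 rose without control replicate 3, against 3.43% of all genes tested lower and 3.81% higher, and the median of the 124 was -0.14 on the log2 scale. Over all 6 libraries 0 were called. Of 15 other Cdk1 regulators and mitotic kinases 2 fell, the centrosomal kinase Nek2 and the centriole kinase Plk4. Nek2 had 16.4, 13.4 and 14.3 CPM with RBPMS, against 23.9, 18.6 and 20.9 CPM in controls (log2 fold change -0.53 ± 0.11, adjusted p = 0.00564), and was below every control. Plk4 had 14.7, 13.5 and 15.7 CPM with RBPMS, against 20.6, 16.9 and 19.2 CPM in controls (log2 fold change -0.35 ± 0.11, adjusted p = 0.0493). Of 15 cohesin genes 1 fell, Sgo1, the shugoshin that protects centromeric cohesion, with 4.01, 4.84 and 4.77 CPM with RBPMS, against 9.11, 6.79 and 6.56 CPM in controls (log2 fold change -0.81 ± 0.17, adjusted p = 0.00442).

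The MuvB, DREAM and B-MYB list had 3 of 14 lower: Mybl2 (-0.45), which encodes B-MYB, and the E2F factors E2f8 (-0.46) and E2f5 (-0.42). The median of this list was -0.036, and 4 of the 14 were above 0. Mybl2 had 8.85, 8.79 and 10.2 CPM with RBPMS, against 12.8, 12.6 and 7.97 CPM in controls, so that control replicate 3 was lowest. Control replicate 3 was also lowest for E2f8, with 15.3, 18.2 and 18.7 CPM with RBPMS, against 25.3, 22.6 and 11.6 CPM in controls. The log2 fold change of E2f8 over all 6 libraries was -0.18. E2f5 was below every control in all 3 RBPMS libraries. Of 26 other spindle and cytokinesis genes 1 was called lower (Fam83d, -0.41), as was 1 of 17 APC/C genes (Anapc5, -0.18), and both shares are near the 3.43% of all genes. None of 3 condensin II or 3 NF-Y genes was called. The median log2 fold change was -0.22 for the other kinetochore genes, -0.21 for the kinases and -0.19 for the spindle genes, -0.14 for condensin II, -0.075 for the APC/C, -0.042 for cohesin and -0.034 for NF-Y. Over all genes it was -0.0025 and over the 56 genes -0.29, and differences between lists were not tested.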

How the data were processed

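The deposited table gives whole-number counts per gene. FastQC, Salmon and the mm10 build are named in the submitters' processing notes, which give no versions. How whole counts were made, and whether by strand, is not stated in the labels. All 56 gene identifiers are in GENCODE M21 (GRCm38), 52 with identical coordinates. Of the 56, 30 overlap another listed gene, and 9 overlap one with at least 10% of their own summed count. Libraries were built from total RNA after ribosomal RNA removal, per the labels' protocols.

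Counts were tested in R 4.3.3 with edgeR 4.0.16 (filterByExpr, TMM, quasi-likelihood test, group as the only term, Benjamini-Hochberg over all tested genes). SE is the absolute fold change divided by the root of F. The code was tested on simulated data whose spread between libraries was close to that of the fit without control replicate 3. The fit over all 6 libraries had a wider spread (common coefficient of variation 0.196, against 0.0489). The simulation therefore does not show how many changes that wider fit would miss. DESeq2 1.42.0, limma 3.58.1 voom, other scalings, no filter, the replicate block, a length trend as offset (loess span 0.3) and leaving out each library were alternatives. Pairs of replicates other than those with control replicate 3 had a chi-square per degree of freedom of 3.19 to 4.32, above sampling noise. In each role, per-library values are given for the 2 genes highest per kb and the 2 with the smallest p, and for any gene called over all 6 libraries or with opposite directions in the 2 fits; a few more were added after their values were seen. Of the neighbouring lists, up to 3 called genes each are named, except 1 that is not reported here. The genes, lists and the choice to leave out control replicate 3 were made with earlier results of these data known.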

Additional observations from a re-analysis of the deposited data

How the results depend on the processing

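Over all 6 libraries the fit without a filter on low counts called 5 genes of the whole table and 0 members, the length trend 3 and 0, and DESeq2 56 and 1 (Spc24). Leaving out 1 library gave 0 to 20 members lower, 0 to 1 higher and 0 to 1022 genes in all, every call coming from the fit without control replicate 3. Without that library, leaving out 1 more gave 2 to 27 members lower, 0 to 1 higher and 415 to 1017 genes in all. Other settings there called 18 to 30 members lower and 1 higher. The highest, 30, came without a filter on low counts. DESeq2 did not call Aurkb or Mki67.

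The replicate numbers were not shown to pair the libraries: same-numbered deviations correlated at 0.051, -0.025 and 0.013. With the replicate block 22 members were lower and 1 higher without control replicate 3, and 18 of the 21 calls were shared. Over all 6 libraries the block called 0.

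Some directions over all 6 libraries changed, and that fit had called 0 genes, so none of its calls could change. Foxm1, Aspm and Mki67, which are among the genes that changed, were called lower without control replicate 3. Foxm1 and Aspm had log2 fold changes of 0.066 and 0.064 in limma-voom and 0.053 and 0.031 with the block, and Mki67 -0.0017 without a filter and -0.14 with the length trend. With 1 library left out the ranges were -0.28 to 0.19 for Foxm1, -0.16 to 0.10 for Bub1b, -0.29 to 0.033 for Cenpe, -0.33 to 0.13 for Cenpf, -0.29 to 0.069 for Kif20a, -0.26 to 0.11 for Kif20b, -0.16 to 0.065 for Kif18b, -0.24 to 0.078 for Hmmr, -0.36 to 0.23 for Aspm, -0.19 to 0.13 for Ncapg, -0.25 to 0.089 for Prc1 and -0.33 to 0.27 for Mki67. Without control replicate 3 they were -0.57 to 0.0032 for Cdc25c, -0.27 to 0.013 for Spc25, -0.42 to 0.081 for Ncapg and -0.10 to 0.055 for Nusap1. The cause was not tested. Control replicates 1 and 2 had median log2 levels of the 56 genes of 0.084 and -0.084 around their mean, and with 2 controls every call made without control replicate 3 has little replication behind it.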
